A study of Mus musculus with 90 samples.

Results

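Of the 90 libraries of the time course, 6 were compared gene by gene: 3 of CT26 cells that had been kept in 50 IU/mL IFNγ for 1 week, and 3 of such cells collected 24 h after fresh IFNγ was added. The members were taken from the labels alone (line, week, treatment and hours), and no measured value entered the choice. CT26 is an established mouse colorectal cancer line, and the melanoma line YUMM2.1 was treated side by side. In each line 15 groups of 3 libraries cover the start and 1, 2 and 3 weeks of exposure, with controls, cells without fresh IFNγ and cells 2 h and 24 h after it. Groups used here beside the 6 libraries are CT26 kept for 1 week without IFNγ (the 1-week controls), CT26 at 1 week 2 h after fresh IFNγ, naive CT26 at the start without and with 24 h of IFNγ, CT26 at 2 weeks without and with 24 h of fresh IFNγ, and YUMM2.1 at 1 week without and with 24 h of fresh IFNγ. All IFNγ groups received the same 50 IU/mL, cells of all groups were replated in 6-well dishes before harvest, and the 24 h cells had IFNγ both before and after the fresh dose.

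Interferon γ binds a receptor of the chains IFNGR1 and IFNGR2, and the kinases JAK1 and JAK2 pass the signal on. Gamma-activated sites (GAS) in promoters, among them that of Irf1, respond to it, and IRF1 in turn acts through interferon-stimulated response elements (ISRE). The genes reached in this way include GTPases that attack the vacuoles of intracellular pathogens, the subunits of the immunoproteasome, MHC class I chains and antiviral effectors. SOCS1, which is itself induced, inhibits the JAKs and limits later signalling.

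Total counts were 1398869, 776937 and 322486 in the libraries without rechallenge, and 1033620, 1342431 and 1054349 in the libraries at 24 h. The third library without rechallenge held 24.5% of the median of its line and stood apart also in the share of counts outside protein-coding genes, 10.3% against 8.25% and 8.32% in its group and 7.66% to 8.08% at 24 h. Where the call of a named gene was lost when 1 of the 6 libraries was left out, the libraries concerned are given beside it. Genes with few counts were poorly measured, since 1 count in that library is worth several units of CPM (the gene's counts scaled to a common library size). Of 13 listed markers of colon epithelium, 2 (Krt18 and Krt20) had enough counts to be tested, against 8 of 12 mesenchymal markers, Vim, Fn1 and Col1a2 among them. The leukocyte and the melanocyte markers had 0 tested members, with summed levels of at most 6.77 and 9.43 CPM per library. Of 6 endothelial markers 5 had no count in the 6 libraries, and 1 was tested. Their sum was 277, 275 and 503 CPM without rechallenge and 260, 271 and 242 at 24 h. No marker of any of the 5 lists was called in the comparison, and the summed mesenchymal markers were 1966, 3195 and 1919 CPM without rechallenge and 1665, 1654 and 2102 CPM at 24 h. The labels speak of triplicate experiments without saying how cultures were separated, so p-values measure the spread between these libraries.

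After 1 week of exposure, 24 h of fresh IFNγ still raised the interferon-induced GTPases, the immunoproteasome, Irf1 and Zbp1, and lowered fewer genes, by less. Of 8516 genes with enough counts, 112 passed an adjusted p of 0.05 in edgeR's quasi-likelihood test, which is 1.32% of those tested. There were 79 higher genes (0.928%) and 33 lower ones (0.388%). The higher genes had a median log2 fold change of 1.27, and 56 of them had at least 1. The lower genes had a median of -0.60, and 2 of them, Serpinf1 and Gm10169, fell by at least 1. Among the 79 higher genes the groups did not overlap in 78, and among the 33 lower ones in 29, while of all tested genes 6.87% lay wholly above and 5.6% wholly below. Without libraries under 25% of the line's median, 72 genes were higher and 31 lower, and 88 of the 103 calls were among the 112. DESeq2 called 82 higher and 61 lower genes. Without the third library at 24 h the lower genes fell to 7 beside 78 higher ones, and with the compared groups alone to 4 beside 47. Without the first, the second or the third library before rechallenge there were 16, 18 and 21 lower genes, and without the second at 24 h 19. Under each alternative run, a fold threshold aside, 42 of the 112 calls held, 40 higher genes and 2 lower ones, Ndufa4 and Gm36634.

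**Figure D1:**
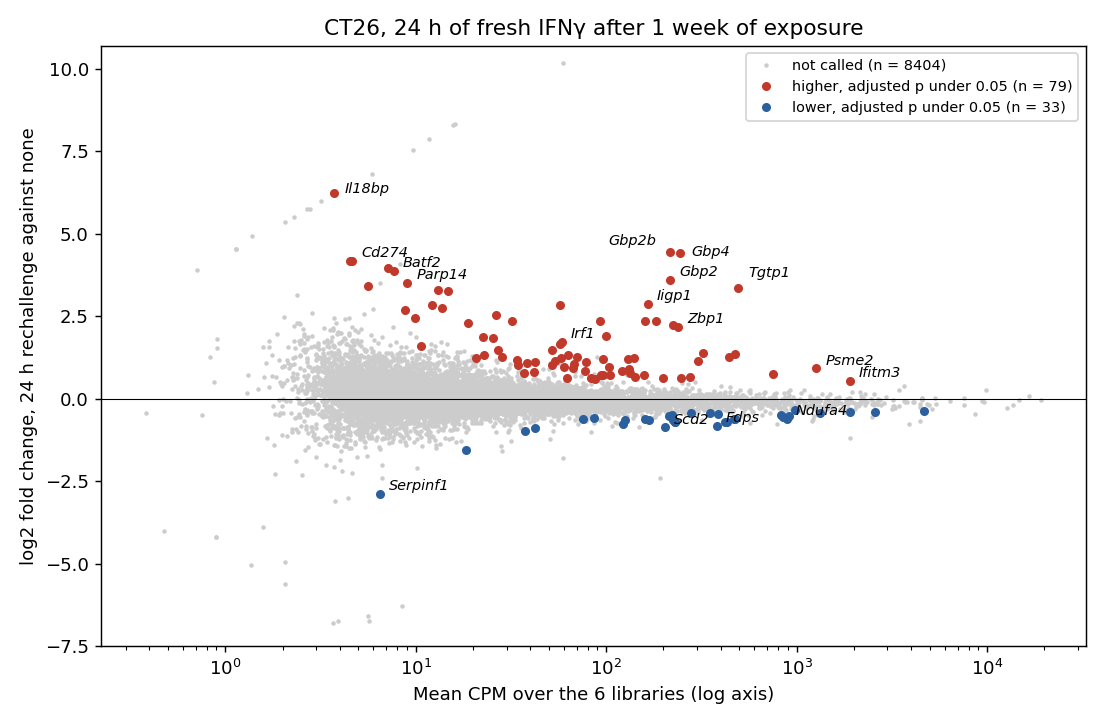
Fold change of each tested gene (log2, 24 h rechallenge against none, 3 libraries each) against its mean CPM over the 6 libraries on a log axis, with the 79 higher genes in red, the 33 lower genes in blue and 8404 genes that did not pass in grey. The GTPases Gbp2b, Gbp4 and Gbp2 lie far above 0 at high levels, the called genes at the left edge (Il18bp, Cd274, Batf2, Parp14) rest on few counts, and the lower genes lie within 1 of 0, Serpinf1 (-2.87) and Gm10169 (-1.54) aside.

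The guanylate-binding proteins (GBPs), large GTPases that coat pathogen vacuoles, gave the largest log2 fold changes among called genes that had any counts before rechallenge, in Gbp2b and Gbp4. Of 11 listed, 10 were tested and 6 were higher, with a list median log2 fold change of 3.44, or 2.36 when the 2 genes without a count before rechallenge are set to their lower bounds. The median of all tested genes was 0.01. Gbp2b, at chr3:142594847-142619179 on the plus strand of mm10, stood at 21.4, 18.9 and 9.49 CPM without rechallenge, rose to 90.8, 86.2 and 80.03 at 2 h and reached 414, 432 and 398 at 24 h. The lowest library at 24 h lay more than 10 times above the highest without rechallenge, and the 1-week controls were at 2.75, 1.36 and 3.41. Its log2 fold change was 4.46 ± 0.20 (SE, n = 3 and 3, adjusted p = 1.24e-20 by edgeR's quasi-likelihood test).

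Gbp4 went from 19.96, 25.6 and 18.97 CPM to 532, 496 and 381, a log2 fold change of 4.43 ± 0.26 (adjusted p = 2.39e-17, edgeR). Gbp2 went from 37.1, 33.7 and 18.97 to 443, 428 and 339 (3.61 ± 0.19, adjusted p = 1.81e-18). In both genes the groups were far apart, and the shallow library gave the lowest value for Gbp4 and Gbp2 before rechallenge without closing the gap. Gbp7 started higher and less evenly, at 68.4, 33.7 and 85.4 CPM, and reached 320.1, 304 and 291 (log2 fold change 2.35 ± 0.17, adjusted p = 6.45e-14). Gbp3 rose from 34.2, 26.95 and 25.3 to 168, 143 and 159 CPM (2.36 ± 0.18), and Gbp9 from 3.56, 2.695 and 0 to 24.03, 39.9 and 18.9 (3.28 ± 0.52). Gbp8 and Gbp10 had no count in any library without rechallenge and reached 3.84, 4.51 and 7.71 and 2.88, 0 and 16.3 CPM, at least 4.41-fold and 5.1-fold higher against a floor of 3 counts over the group, and neither passed the test. Summed over the list, the GBPs gave 189.7, 149.6 and 158 CPM without rechallenge, 429.9, 424 and 445 at 2 h and 1920.4, 1887 and 1618 at 24 h. The 1-week controls gave 14.7, 13.6 and 20.5. Gbp4, Gbp8 and Gbp9, and likewise Gbp6 and Gbp10, are close copies that can share reads, so the split between such neighbours is uncertain.

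The immunity-related GTPases (IRGs), smaller interferon-induced GTPases of the same defence, rose as a group: 8 of 10 listed genes were tested and 8 were higher, with a median log2 fold change of 2.32. Igtp, a regulatory member, rose from 58.5, 52.6 and 34.8 CPM to 296, 282 and 231 (log2 fold change 2.37 ± 0.16, adjusted p = 1.3e-14, edgeR). Iigp1, an effector member, rose from 51.3, 40.4 and 9.49 to 325, 330.1 and 239.98 (2.88 ± 0.21, adjusted p = 6.45e-14). Both had all 24 h libraries above all others, with the shallow library lowest for each. Irgm1, which restrains the effector members, was 251, 305 and 209 CPM without rechallenge, 651, 536 and 632 at 2 h and 644, 666 and 569.95 at 24 h (1.27 ± 0.11, adjusted p = 2.31e-11). The levels at 2 h and 24 h overlapped, the direct difference being 0.05 ± 0.10 (adjusted p = 0.979). Ifi47 rose from 43.5, 40.4 and 41.1 CPM to 158, 166 and 152 (1.91 ± 0.21).

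Tgtp1 and Tgtp2 are near-identical copies, and how reads were split between them is uncertain. Tgtp1 went from 89.1, 39.1 and 158 CPM to 899, 1108 and 659 (log2 fold change 3.38 ± 0.38, adjusted p = 3.6e-08, edgeR). Tgtp2 went from 267, 345 and 158 to 744, 638 and 693 (1.37 ± 0.32, adjusted p = 0.0114), and its call was lost without the first or the third library before rechallenge (adjusted p 0.0641 to 0.0856). The values before rechallenge moved in opposite ways in the pair, Tgtp1 being highest where Tgtp2 was lowest. Summed over the list, the IRGs gave 781, 842 and 610.2 CPM without rechallenge, 2049.8, 1796 and 2139.8 at 2 h and 3143, 3273 and 2648 at 24 h.

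**Figure D2:**
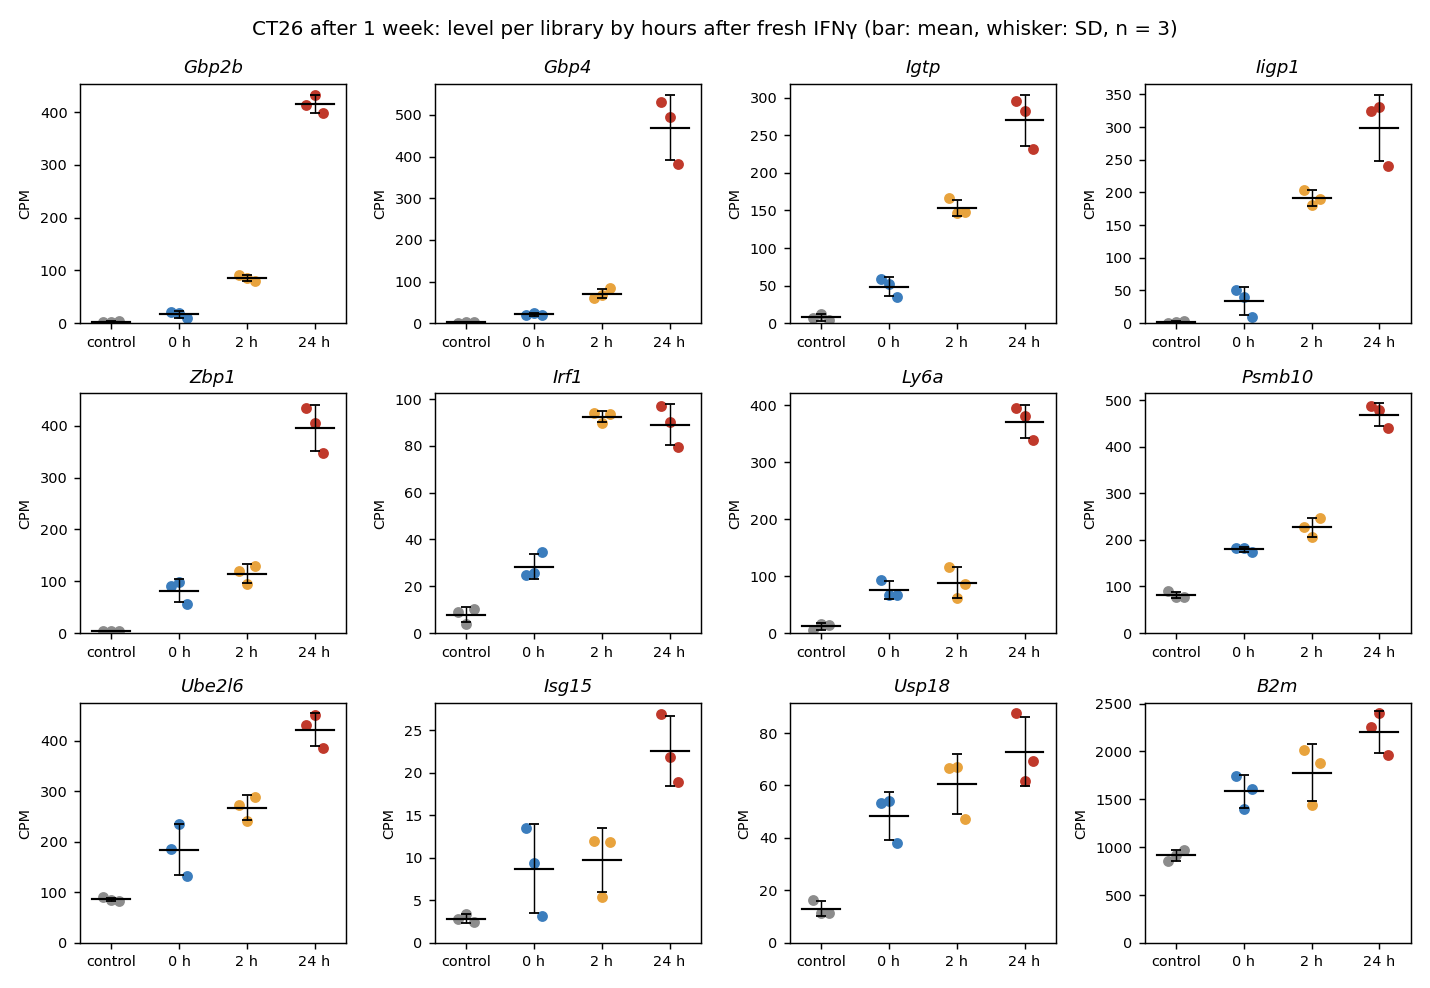
Level in CPM of 12 genes in each library of CT26 at 1 week, for the controls without IFNγ and for cells at 0 h, 2 h and 24 h after fresh IFNγ, with the mean as a bar and the SD as a whisker (n = 3). Gbp2b, Gbp4, Zbp1 and Psmb10 climb mainly between 2 h and 24 h, Irf1 has overlapping values at 2 h and 24 h, and B2m and Usp18 rise little over a level that was already above the controls.

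Irf1, the transcription factor that relays the signal, lies at chr11:53770014-53778374 on the plus strand of mm10 and rose from 24.95, 25.6 and 34.8 CPM to 97.1, 90.2 and 79.7. The groups were well apart, and the values at 2 h lay in the same range, 94.3, 89.8 and 93.5. Its log2 fold change was 1.73 ± 0.21 (adjusted p = 1.46e-07, edgeR), and the difference between 24 h and 2 h was -0.06 ± 0.16 (adjusted p = 0.983). Of 7 tested genes among the interferon regulatory factors and Batf2, 3 were higher. Irf7, which drives type I interferon genes, went from 24.2, 18.9 and 25.3 to 40.4, 48.1 and 50.6 CPM (1.04 ± 0.27, adjusted p = 0.0348). The call of Irf7 was lost without the first, the second or the third library before rechallenge or the second or the third at 24 h (adjusted p 0.0619 to 0.242). Batf2, a partner of the IRFs, went from 0, 1.35 and 3.16 to 19.2, 12.8 and 9.43 CPM, 2 counts against 48 and a ratio of 16.7 (95% counting interval 4.38 to 142). Its call was lost without the first library before rechallenge (adjusted p = 0.123). Irf9 (-0.17) and Irf2 (0.72) did not pass.

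Short stretches of promoter are shown for genes of the main groups, since GAS and ISRE are promoter elements of interferon-induced genes. Genes are shown because their window held a match, so the matches say nothing of how many raised genes have one. They come from RefSeq promoter windows on GRCm38.p6, which held 60 of the 79 higher genes, too few for a share of motifs over them. No match is listed for Gbp4, Zbp1, Ly6a or Iigp1, and the listing left out the windows of a chromosome. A missing match for these genes thus does not show that they lack the motifs. The window of Psmb10 held neither motif. The 250 bases before the start were searched on both strands for the letters TTCNNNGAA (GAS), which 8.13% of the 27025 genes with a window hold, and for GAAA, any 2 bases and GAAA again (ISRE), which 3.46% hold. Each stretch runs 5′ to 3′ on the gene's own strand, with the motif in capitals, or with the reverse of the ISRE letters where the site lies on the other strand.
Irf1, GAS, chr11:53769899-53769957, plus strand: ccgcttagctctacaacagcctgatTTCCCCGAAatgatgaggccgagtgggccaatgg
Igtp, GAS, chr11:58199486-58199544, plus strand: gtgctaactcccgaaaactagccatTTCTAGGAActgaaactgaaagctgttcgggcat
Irgm2, GAS, chr11:58214877-58214935, plus strand: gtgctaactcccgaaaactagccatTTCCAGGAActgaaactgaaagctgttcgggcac
Tgtp1, GAS, chr11:48992301-48992359, minus strand: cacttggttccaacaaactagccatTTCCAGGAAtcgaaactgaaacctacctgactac
Gbp7, GAS, chr3:142530205-142530263, plus strand: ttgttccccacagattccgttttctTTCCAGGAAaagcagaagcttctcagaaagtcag
Gbp2, ISRE, chr3:142620579-142620638, plus strand: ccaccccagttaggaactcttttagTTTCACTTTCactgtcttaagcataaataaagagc
Psmb8, GAS, chr17:34198073-34198131, plus strand: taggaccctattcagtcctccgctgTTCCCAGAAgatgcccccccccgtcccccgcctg
Ifit1, ISRE, chr19:34640779-34640838, plus strand: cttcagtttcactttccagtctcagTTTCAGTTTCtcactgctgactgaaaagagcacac
The motif begins 90 bases before the start in Irf1, 45 in Igtp, 75 in Irgm2, 88 in Tgtp1 and 97 in Psmb8. The stretches of Igtp and Irgm2 match at 57 of 59 positions, and those of Irgm2 and Tgtp1 at 39 of 59, and in Igtp, Irgm2 and Tgtp1 an ISRE follows the GAS within the same stretch. Irgm2 rose from 9.27, 5.39 and 0 to 22.1, 33.1 and 42.9 CPM (2.29 ± 0.42), close to Igtp in fold change (2.37 ± 0.16). A match is a description of the letters and says nothing of binding in these cells.

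The receptor chains did not pass the test. The ligand-binding chain Ifngr1 was 7.13, 13.5 and 31.6 CPM before and 14.4, 9.78 and 8.57 after (log2 fold change -0.34 ± 0.47, adjusted p = 0.928, edgeR), and the estimate turned to 0.17 without the shallow library. Ifngr2, the other chain, had no count before and 2.88, 2.26 and 8.57 CPM after, at least 3.71-fold higher, and did not pass (adjusted p = 0.0767).

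The feedback genes held 0 calls among 14 tested by edgeR and had a median log2 fold change of 0.21. Usp18, which removes ISG15 and blocks type I interferon receptors, was 53.5, 53.9 and 37.9 CPM before and 87.5, 61.7 and 69.4 after (0.52 ± 0.23, adjusted p = 0.426). Its groups lay next to each other, well above the 16.5, 11.5 and 11.2 of the 1-week controls. Socs1, the JAK inhibitor, was 3.56, 0 and 3.16 CPM before and 3.84, 3.01 and 6.86 after (0.92 ± 0.85, adjusted p = 0.839), a level too low to show a change of this size.

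In antigen processing 5 of the 7 genes on the immunoproteasome list passed the test and the standard subunits did not. The 5 were higher, and the 2 that did not pass were Psme3 and Pomp. The list had a median log2 fold change of 0.92. Of 31 constitutive subunits 0 passed in either direction with edgeR, with a median of 0.04. Psmb10, a catalytic subunit, rose from 183, 182 and 174 CPM to 486, 479 and 441 (log2 fold change 1.38 ± 0.11, adjusted p = 1.97e-12, edgeR). All its 24 h libraries were more than 2 times above those without rechallenge. Psmb9 and Psmb8, the other inducible catalytic subunits, went from 73.4, 79.5 and 85.4 to 207, 177 and 161 (1.22 ± 0.19) and from 37.1, 16.2 and 25.3 to 99.00, 84.98 and 83.1 CPM (1.66 ± 0.26). Psme2, a subunit of the PA28 activator, went from 933, 895 and 797 to 1744, 1805 and 1454 CPM (0.92 ± 0.10, adjusted p = 2.13e-08), and its partner Psme1 from 176, 137 and 145 to 233, 256 and 241 (0.64 ± 0.14). The call of Psme1 was lost without the second library before rechallenge (adjusted p = 0.0924). At 2 h no immunoproteasome gene had been called. Psmb9 overlaps Tap1, and its counts are uncertain to that extent.

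Of 11 tested MHC class I genes 2 were higher. H2-T22, a non-classical chain, rose from 39.9, 39.1 and 47.4 CPM to 99.96, 92.5 and 104 (1.26 ± 0.18, adjusted p = 4.21e-06, edgeR). H2-K1, a classical chain, rose from 118, 72.8 and 101 to 140.3, 154 and 213 (0.78 ± 0.20, adjusted p = 0.0318), and its call was lost without the second or the third library before rechallenge or the third at 24 h (adjusted p 0.0738 to 0.354). H2 genes share much of their sequence, and counts may be split between them. B2m, the light chain of every class I molecule, was 1743, 1402 and 1603 CPM before and 2250.1, 2398 and 1965 after. All 24 h values lay above those before, and the log2 fold change of 0.48 ± 0.13 missed the threshold (adjusted p = 0.0582). H2-D1 had 0.35 (adjusted p = 0.236). None of 8 peptide transport and loading genes passed with edgeR: Tapbp had 0.76 ± 0.22 (adjusted p = 0.087), Tap2 1.17 ± 0.36 and Tap1 0.91 ± 0.41. Of the MHC class II pathway 1 of 13 genes was tested, Ifi30 (-1.19 ± 0.35, adjusted p = 0.0916), and Ciita, the master regulator of class II genes, had too few counts.

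Zbp1, a sensor of Z-form nucleic acid that can trigger necroptosis, rose late. It was 90.5, 98.4 and 56.9 CPM before rechallenge, 119.6, 95.3 and 129.7 at 2 h and 435, 405 and 347 at 24 h. The 2 h libraries stood close to the level before rechallenge and the 24 h libraries far above both, against 4.59, 4.75 and 4.39 in the 1-week controls. Its log2 fold change was 2.19 ± 0.16 (adjusted p = 1.07e-13, edgeR). Among the 10 tested nucleic acid sensors 3 were higher, Zbp1, Ifi203 (1.34 ± 0.20) and Ifi204 (1.05 ± 0.20).

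Antiviral effectors moved less. Of 24 tested genes 7 were higher, with a list median of 0.72. Ifi44 rose from 29.9, 29.6 and 18.97 CPM to 81.7, 75.2 and 75.4 (log2 fold change 1.47 ± 0.20, adjusted p = 1.84e-06, edgeR). Ifit1, which binds viral RNA, went from 35.6, 33.7 and 31.6 to 81.7, 61.7 and 67.7 (1.03 ± 0.26, adjusted p = 0.027), a call lost without the first, the second or the third library before rechallenge or the first or the third at 24 h (adjusted p 0.0508 to 0.142). Rtp4 went from 87.7, 82.2 and 60.1 to 129, 139.9 and 128 CPM (0.72 ± 0.18, adjusted p = 0.0178), a call lost without the second or the third library before rechallenge or the second at 24 h (adjusted p 0.0849 to 0.109). The groups of these 3 genes did not overlap. Ifit3 (1.86 ± 0.39), Oasl2 (1.19 ± 0.29), Bst2, which tethers virions (0.74 ± 0.16), and Oasl1 (0.72 ± 0.17) made up the rest of the 7, and Ifit3 shares reads with Ifit3b. The call of Oasl1 was lost without the first or the third library before rechallenge or the first at 24 h (adjusted p 0.0548 to 0.0892), that of Oasl2 without the first or the second library before rechallenge or the first or the second at 24 h (adjusted p 0.0583 to 0.152), that of Bst2 without the second library before rechallenge or the second at 24 h (adjusted p 0.0549 to 0.149) and that of Ifit3 without the second library before rechallenge (adjusted p = 0.0853).

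Of 7 tested genes in the ISG15 list 3 were higher, 2 of them enzymes of ISG15 conjugation. The list also held Isg20, which has no part in that conjugation. Ube2l6, the conjugating enzyme, rose from 186, 234 and 133 CPM to 431, 449.7 and 385 (1.15 ± 0.15, adjusted p = 4.17e-07, edgeR). Isg20, an RNA exonuclease, rose from 32.1, 40.4 and 31.6 to 74.97, 94.8 and 74.6 (1.23 ± 0.19), and Herc6, the ligase, from 15.7, 20.2 and 12.6 to 48.1, 36.1 and 36.9 (1.26 ± 0.25). Isg15 itself was 13.5, 9.43 and 3.16 CPM before and 26.9, 21.8 and 18.9 after (1.10 ± 0.41, adjusted p = 0.269), with groups that did not overlap and few counts in the shallow library.

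Among interferon-induced membrane proteins 4 of 8 tested genes were higher. Ly6a, also known as Sca-1, rose from 93.4, 67.4 and 66.4 CPM to 395, 381 and 339 (log2 fold change 2.23 ± 0.19, adjusted p = 2.96e-12, edgeR), with 117, 61.7 and 86.8 at 2 h. Like Zbp1 it had hardly moved by 2 h. Ifitm3, which blocks viral entry, rose from 1662, 1523 and 1470.3 to 2291, 2326 and 2158 CPM (0.54 ± 0.11), a small and even change. Tmem140 rose from 3.56, 1.35 and 0 to 16.3, 15.04 and 16.3 (2.70 ± 0.51). Of 6 tested interferon-driven metabolic enzymes 3 were higher: Wars, which charges tryptophan tRNA, from 83.4, 68.7 and 50.6 to 127, 142 and 149.99 CPM (0.96 ± 0.13, adjusted p = 1.58e-06), the aminopeptidase Lap3 (0.71 ± 0.14) and the uridine phosphorylase Upp1 (1.12 ± 0.26), whose call was lost without the first or the second library before rechallenge or the first or the second at 24 h (adjusted p 0.0516 to 0.148). Casp1, the inflammasome protease, rose from 16.4, 14.8 and 9.49 to 32.7, 51.1 and 38.6 CPM (1.47 ± 0.30, adjusted p = 0.00262) and with Zbp1 made up the 2 calls among 11 death pathway genes. Nmi, an interferon-induced protein, was the 1 of 9 PML body and nuclear genes (0.94 ± 0.18).

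Several induced genes rested on few counts. Parp14, an interferon-induced ADP-ribosyltransferase at chr16:35832874-35871544 on the minus strand of mm10, was 0.713, 0 and 6.32 CPM before and 19.2, 7.52 and 20.6 after, from 1, 0 and 2 counts to 20, 10 and 24. That is a ratio of 12.5 (95% counting interval 4.06 to 62.6), and the level at 2 h was 12.7, 14.5 and 7.58. It passed the test (adjusted p = 0.00685, edgeR), and the call was lost without the first or the second library before rechallenge (adjusted p 0.0886 to 0.159). It was the 1 called gene of 7 interferon-induced PARPs and Dtx3l, all of which had a positive log2 fold change, with a median of 1.35. Parp9 had 0.81 ± 0.33 (adjusted p = 0.369), Parp12 1.35 ± 0.59, Parp10 1.42 ± 0.49 and Dtx3l 1.44 ± 0.52.

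Cd274, which encodes PD-L1, had 1 count over the 3 libraries before rechallenge and 32 after, 0.713, 0 and 0 CPM against 11.5, 11.3 and 4.29. The ratio was 22.3 (95% counting interval 3.72 to 907), with 11.3, 10.9 and 9.27 CPM at 2 h and an adjusted p of 0.0141 by edgeR. The call was lost without the first or the second library before rechallenge or the second at 24 h (adjusted p 0.0627 to 0.0993). It was the 1 called gene among 7 tested checkpoint and lymphocyte ligands. Il18bp, the decoy that binds interleukin 18, had no count before and 6.73, 10.5 and 5.14 CPM after, at least 6.26-fold higher (adjusted p = 0.0147), a call lost without the first or the second library before rechallenge or the second at 24 h (adjusted p 0.0708 to 0.159). C1s1, a protease of the classical complement pathway, rose from 2.14, 4.04 and 6.32 to 26.9, 21.8 and 21.4 CPM (2.76 ± 0.53, adjusted p = 0.00109), a call lost without the first library before rechallenge (adjusted p = 0.0762). Ddx19b, an RNA helicase, had 2 counts before and 35 after, 0.713, 0 and 3.16 CPM against 7.69, 8.27 and 13.7, a ratio of 12.2 (95% counting interval 3.13 to 104, adjusted p = 0.0381), and its call was lost without the first or the second library before rechallenge or the second or the third at 24 h (adjusted p 0.0579 to 0.245). Gm12185 had 1 count before and 32 after, 0.713, 0 and 0 CPM against 6.73, 13.5 and 5.999 (adjusted p = 0.0142), and its call was lost without the first or the second library before rechallenge or the second at 24 h (adjusted p 0.0926 to 0.108). Gm12250, annotated as a pseudogene, had 2 counts before and 49 after, 1.43, 0 and 0 CPM against 9.61, 12.03 and 19.7 (adjusted p = 0.0303), and its call was lost without the first, the second or the third library before rechallenge or the second or the third at 24 h (adjusted p 0.0543 to 0.174). These genes were low in each library before rechallenge, and the size of their change is known only roughly. Gm4841 rose from 2.85, 2.695 and 0 to 20.2, 23.3 and 29.997 CPM (3.30 ± 0.47, adjusted p = 4.22e-06) and Gm8995, annotated as a pseudogene, from 2.85, 2.695 and 3.16 to 24.99, 12.03 and 27.4 (2.86 ± 0.57), and neither lost its call when 1 library was left out. Of the chemokines and Csf1, 2 were tested with edgeR and 0 called: Cxcl10 was 6.42, 4.04 and 0 CPM before and 4.81, 6.77 and 8.57 after, with 16.9, 12.7 and 14.3 at 2 h.

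**Figure D3:**
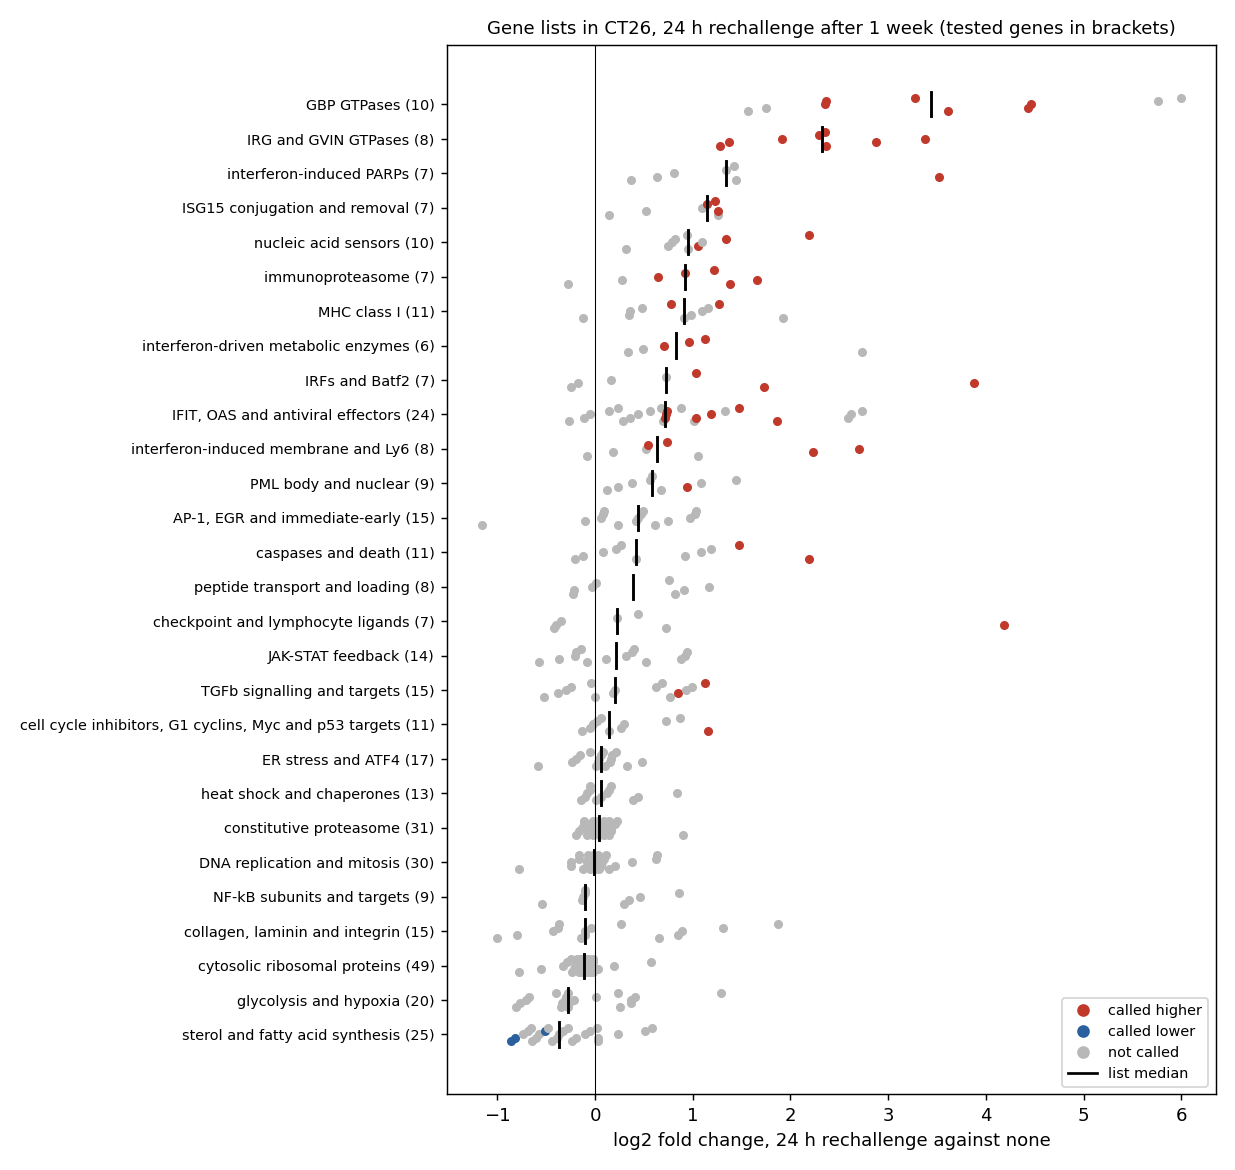
Log2 fold change (24 h rechallenge against none, n = 3 and 3) of each tested member of the lists shown, which had at least 5 tested genes each, with higher genes in red, lower genes in blue, genes that did not pass in grey and the list median as a black tick. The GBPs and IRGs lie furthest to the right with medians of 3.44 and 2.32, and the interferon-induced PARPs follow with 1.35. The immunoproteasome has a median of 0.92, and the sterol genes lie mostly left of 0 with a median of -0.37.

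Outside the interferon groups, few listed genes passed. Mdm2, the ligase that degrades p53, rose from 34.2, 39.1 and 22.1 CPM to 80.7, 78.96 and 66.9 (log2 fold change 1.16 ± 0.21, adjusted p = 0.000452, edgeR), after 94.3, 93.5 and 101 at 2 h. Id2, an inhibitor of helix-loop-helix factors and a target of TGFβ family signals, rose from 63.5, 44.5 and 28.5 to 107, 127 and 97.7 CPM (1.13 ± 0.21, adjusted p = 0.000664), after 157, 143 and 119 at 2 h. In both genes the mean at 2 h lay above that at 24 h, and the values before rechallenge did not stand above the 1-week controls (44.03, 36.6 and 38.99 CPM for Mdm2 and 47.7, 81.4 and 72.1 for Id2). Id3 rose by 0.85 ± 0.20, and with Id2 it made up the 2 calls among 15 TGFβ genes, although its own call was lost without the second library before rechallenge or the second at 24 h (adjusted p 0.0549 to 0.228). The redox gene Prdx5, a peroxiredoxin, rose from 238, 221 and 171 to 351, 363 and 319.7 CPM (0.67 ± 0.11, adjusted p = 0.00011), and the metallothionein Mt2 from 588, 526 and 566 to 956, 1059.6 and 823 (0.76 ± 0.14). The edgeR test called 0 of 9 NF-kB genes, 0 of 15 immediate-early genes, 0 of 30 replication and mitosis genes (median -0.01), 0 of 17 ER stress genes, 0 of 13 chaperones, 0 of 15 tested collagen, laminin and integrin genes and 0 of 49 ribosomal protein genes (median -0.11).

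The genes that fell were fewer, changed less and depended more on the libraries used. Sterol and fatty acid synthesis supplied 3 of them among 25 tested genes, with a list median of -0.37. Fdps, which makes farnesyl diphosphate in the mevalonate pathway, fell from 421, 499.97 and 547 CPM to 312, 274 and 235 (log2 fold change -0.82 ± 0.17, adjusted p = 0.00262, edgeR). Its groups did not overlap, and its call was lost without the third library at 24 h (adjusted p = 0.061). Scd2, a fatty acid desaturase, was 262, 179 and 357 CPM before and 111, 113 and 201 after (-0.86 ± 0.20, adjusted p = 0.0134). The groups of Scd2 overlapped, the shallow library gave its highest value, and its call was lost without the first or the third library before rechallenge or the first or the second at 24 h (adjusted p 0.0954 to 0.143). Msmo1, a demethylase of sterols, went from 267, 298 and 187 to 183, 184 and 173 CPM (-0.52 ± 0.13, adjusted p = 0.0246), a call lost without the first or the second library before rechallenge or the first, the second or the third at 24 h (adjusted p 0.0738 to 0.3). Cyp51 (-0.58 ± 0.16) and Sqle (-0.61 ± 0.17) just missed the threshold. Summed over the list, the levels were 2127, 2021 and 2362 CPM without rechallenge, 1784, 1745 and 1762 at 2 h and 1535, 1469 and 1509 at 24 h, with 2271, 2327 and 2408 in the 1-week controls.

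Ndufa4, a subunit of the respiratory chain, fell from 1029.5, 1218 and 974 CPM to 730.5, 762 and 631 (log2 fold change -0.61 ± 0.11, adjusted p = 0.000226, edgeR), and the controls were higher still at 1438, 1365 and 1454. Its groups did not overlap, and its call held under each alternative run. Slc2a3, a glucose transporter, fell from 930.4, 1051 and 923 to 736, 632 and 699 CPM (-0.49 ± 0.12, adjusted p = 0.0155), and lost its call without the first or the second library before rechallenge or the second or the third at 24 h (adjusted p 0.0568 to 0.142). Of 20 tested glycolysis and hypoxia genes edgeR called 0, with a median of -0.28. Sirt5, a mitochondrial deacylase, fell from 560.4, 434 and 579 to 323, 332 and 310.3 CPM (-0.70 ± 0.14, adjusted p = 0.00218), a call lost without the first library before rechallenge (adjusted p = 0.0503). Serpinf1, a secreted serpin, fell furthest, from 12.1, 6.74 and 15.8 to 1.92, 1.504 and 0.857 CPM (-2.87 ± 0.69, adjusted p = 0.0148), and its level before rechallenge lay above the 3.67, 3.39 and 2.44 of the 1-week controls. Its call was lost without the first or the third library before rechallenge or the second or the third at 24 h (adjusted p 0.0521 to 0.123). Aldh1a3, a retinaldehyde dehydrogenase, and Creld2, a protein of the endoplasmic reticulum, were called with overlapping groups, at -0.42 ± 0.11 and -0.96 ± 0.25. The call of Aldh1a3 was lost without the first or the second library before rechallenge or the second or the third at 24 h (adjusted p 0.176 to 0.527), and that of Creld2 without the second or the third library before rechallenge or the first or the second at 24 h (adjusted p 0.186 to 0.263).

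The other lower genes with the largest fold changes and separate groups were Madd, a regulator of Rab GTPases, Slc22a17, Casc4 and several that are not protein coding. Madd fell from 44.9, 59.3 and 63.2 to 26.9, 35.3 and 24.00 CPM (-0.88 ± 0.23, adjusted p = 0.0416, edgeR), and its call was lost without the first, the second or the third library before rechallenge or the first or the third at 24 h (adjusted p 0.0503 to 0.296). Slc22a17, a transporter family member, fell from 158, 154 and 152 to 88.4, 113 and 73.7 CPM (-0.75 ± 0.18), a call lost without the first or the second library before rechallenge or the first or the third at 24 h (adjusted p 0.054 to 0.213). Casc4 fell from 518, 596 and 477 to 339, 319 and 325 CPM (-0.70 ± 0.17), a call lost without the first or the second library before rechallenge or the second or the third at 24 h (adjusted p 0.0718 to 0.149). These genes stood at moderate levels and each rested on particular libraries. Among the noncoding ones, the pseudogene Gm10169 went from 26.4, 13.5 and 44.3 to 7.69, 9.78 and 8.57 CPM (-1.54 ± 0.42), a call lost without the first or the third library before rechallenge or the first, the second or the third at 24 h (adjusted p 0.106 to 0.239). The transcript Gm36634 went from 268, 283 and 304 to 165, 184 and 169.7 CPM (-0.70 ± 0.12) and kept its call. The lincRNA Gm10845 (-0.65 ± 0.15) lost its call without the first or the third library before rechallenge or the first or the third at 24 h (adjusted p 0.0569 to 0.165), and the pseudogene Gm9864 (-0.69 ± 0.17) without the first or the third library before rechallenge or the first, the second or the third at 24 h (adjusted p 0.051 to 0.154).

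Of the 33 lower genes 10 are not protein coding, 30.3% against 8.65% of all tested genes and 3 of the 79 higher ones. The share of counts outside protein-coding genes was itself lower in the 24 h libraries (7.66% to 8.08%) than before rechallenge (8.25% to 10.3%), and the part of that in these calls was not tested.

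**Figure D4:**
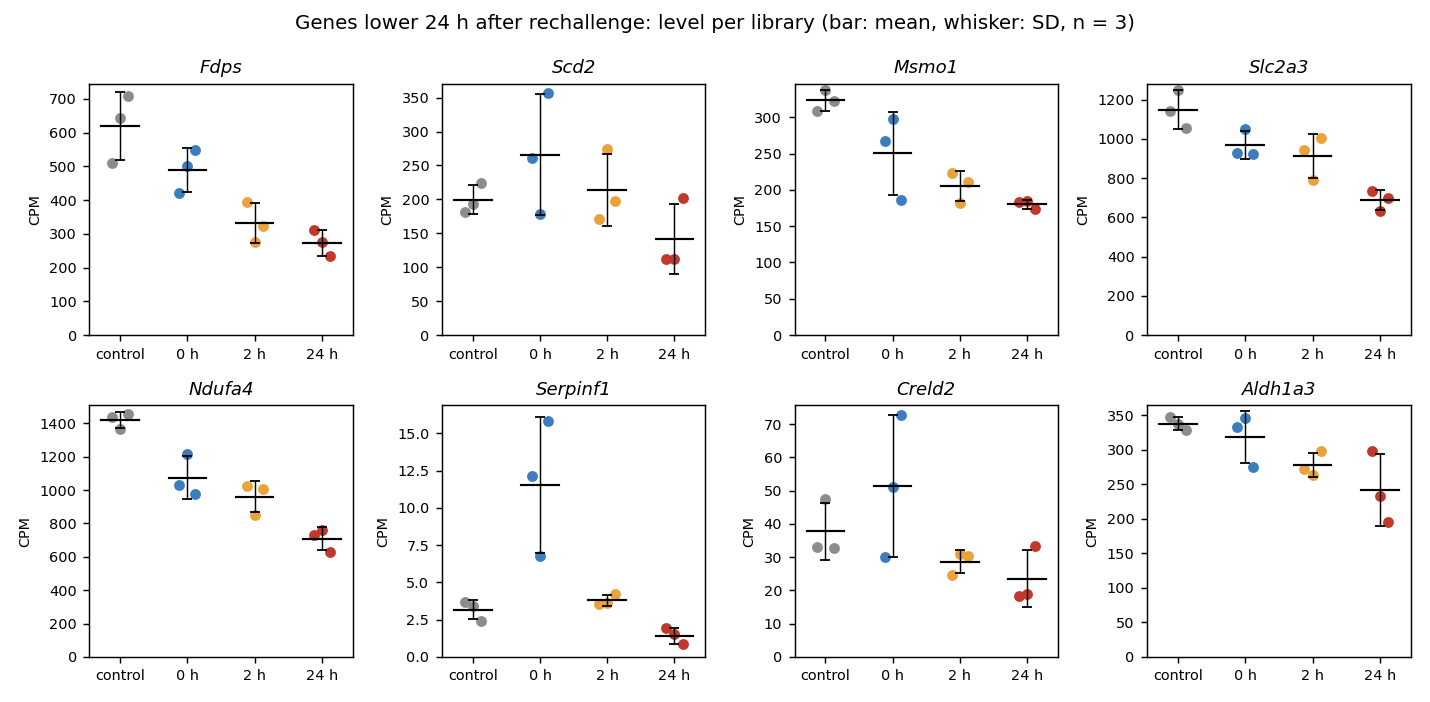
Level in CPM of 8 genes that were lower at 24 h, in each library of CT26 at 1 week, for the controls without IFNγ and for cells at 0 h, 2 h and 24 h after fresh IFNγ, with the mean as a bar and the SD as a whisker (n = 3). Fdps, Slc2a3 and Ndufa4 step down with separate groups, while Scd2, Creld2 and Aldh1a3 have groups that overlap.

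The rechallenge was set beside the first 24 h of IFNγ in naive CT26 cells to ask whether the week of exposure had changed the response. The difference between both responses, which share no library, passed in 59 genes (0.693%). Taken as 1 week less naive, it was negative in 56 (0.658%) and positive in 3 (0.0352%). The sign alone does not give the smaller response. Of the 33 genes that fell at 1 week, 3 had a negative difference, Zfp60, Gm36634 and Noa1. Without the third naive 24 h library there were 76 negative and 13 positive differences, and without the filter on low counts 78 and 29. The naive response itself called 174 genes (2.04%), 151 of them higher (1.77%), and 62 of the 79 genes raised at 1 week were among these. Zbp1 had the smallest adjusted p of the difference. In naive cells it went from 7.799, 6.25 and 5.35 CPM to 348, 318 and 279, a log2 fold change of 5.59 ± 0.22, against 2.19 ± 0.16 at 1 week, and the difference was -3.40 ± 0.29 (adjusted p = 1.12e-10, edgeR). The levels reached differed by 0.34 ± 0.14, which did not pass (adjusted p = 0.348), while the level before IFNγ was 90.5, 98.4 and 56.9 CPM at 1 week.

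Psmb9 went from 1.42, 1.87 and 6.54 to 105, 114 and 122 CPM in naive cells, and its response was smaller at 1 week by -3.82 ± 0.37 (log2, adjusted p = 1.42e-09, edgeR). Gbp7 went from 4.96, 4.996 and 2.38 to 232, 236 and 181 in naive cells (-3.33 ± 0.33). In both genes naive cells started far below the 1-week cells and ended below them. The difference in the level reached passed for Psmb9 (0.66 ± 0.18, adjusted p = 0.0445, edgeR) and did not pass for Gbp7. By list, the response was smaller in 7 of 8 IRGs, 5 of 7 immunoproteasome genes, 11 of 24 antiviral effectors and 3 of 10 GBPs.

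Gbp2b and Gbp4 had a difference that did not pass, -1.17 ± 0.40 (adjusted p = 0.276) and -1.35 ± 0.51 (adjusted p = 0.359) by edgeR, and neither did Irf1 (-0.58 ± 0.35, adjusted p = 0.592). These values do not show that the responses were alike. Selp, an adhesion receptor, responded more at 1 week: it went from 4.99, 1.35 and 0 to 22.1, 9.78 and 21.4 CPM there and from 12.8, 6.87 and 5.94 to 3.96, 3.397 and 8.18 in naive cells, a difference of 2.94 ± 0.66 (adjusted p = 0.0129). In naive cells the values after IFNγ overlapped those before, and each level before IFNγ lay above those at 1 week. Cyp2c55 was the other gene with a larger response among the 79 raised at 1 week (0.94 ± 0.23), and its call in the rechallenge itself was lost without the first or the third library before rechallenge or the first or the second at 24 h (adjusted p 0.146 to 0.281).

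**Figure D5:**
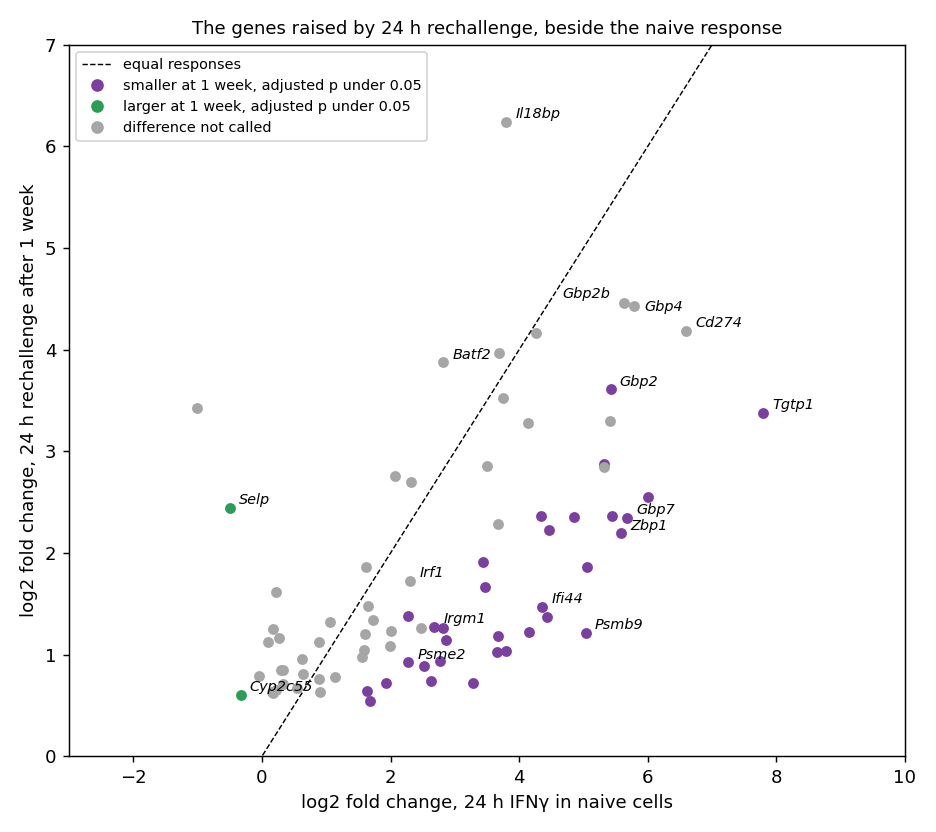
Log2 fold change after 24 h of IFNγ in naive cells (x) and after 24 h of rechallenge at 1 week (y) for the 79 genes raised at 1 week (n = 3 and 3 for each response), with the line of equal responses dashed. Points in purple had a smaller response at 1 week (32 genes), green points a larger one (Selp and Cyp2c55), and grey points no called difference.

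The levels reached were compared directly, 24 h after fresh IFNγ at 1 week against 24 h in naive cells. This comparison shares its 24 h libraries with the main one. It called 116 genes (1.36%), 29 higher (0.341%) and 87 lower (1.02%) at 1 week. Of the 79 raised genes 15 were higher and 1, Ifit1, was lower (-0.98 ± 0.22). Gbp4 reached 532, 496 and 381 CPM at 1 week and 259, 182 and 126 in naive cells, a difference of 1.37 ± 0.19 (adjusted p = 2.95e-05, edgeR). Irf1 reached 97.1, 90.2 and 79.7 against 27.7, 42.5 and 37.2 (1.29 ± 0.20, adjusted p = 0.000137). The GBP sum was 1920.4, 1887 and 1618 CPM at 1 week and 1022, 897 and 858 in naive cells, so each 1-week library exceeded each naive one. The summed antiviral effectors lay the other way, at 3632, 3584 and 3211 CPM at 1 week and 4605, 4630 and 3949 in naive cells. So did the ISG15 list, at 682, 678 and 612 CPM against 742, 700 and 720. Gene by gene, edgeR called 3 of 10 GBPs higher at 1 week and 2 of 24 antiviral effectors lower. Of 7 ISG15 genes it called 0 in either direction. The antiviral sum was already 3095, 2929 and 3016 CPM in naive cells without IFNγ. Rtp4 did not pass (-0.04 ± 0.17, adjusted p = 0.978). Of the naive 24 h libraries, the first and the second held 519097 and 618598 counts with 7.89% and 7.93% from mitochondrial genes, against 6.2% in the third. With library totals 56 genes were higher and 82 lower. The count of calls was 25, 12 and 219 without the first, the second or the third naive 24 h library and 58, 57 and 19 without those at 1 week, and only 5 genes passed when these 6 libraries were fitted alone.

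Before rechallenge, 62 genes (0.728%) already differed from the 1-week controls, 56 of them higher (0.658%) and 6 lower (0.0705%), and 37 of the 79 raised genes were among these. That comparison shares the libraries before rechallenge with the main one. Psmb10 was 89.9, 78.05 and 77.01 CPM in the controls and 183, 182 and 174 before rechallenge, and Igtp 7.34, 12.9 and 3.899 and 58.5, 52.6 and 34.8. By contrast Wars (91.7, 84.2 and 82.9 CPM in the controls) and Lap3 (110.1, 112 and 139) had not passed above the controls after the week of IFNγ. Nor had C1s1 (0.917, 0.679 and 0.975), although each of its libraries before rechallenge lay above each control, at few counts.

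At 2 h after the same rechallenge 32 genes had passed (0.376%), 31 of them higher (0.364%) and 1 lower (0.0117%), and 25 of the 79 were among the higher ones. Both times are measured against the same libraries, so only the direct difference was tested, and it called 45 genes (0.528%), 37 higher (0.434%) and 8 lower (0.0939%) at 24 h. The split was 43 higher and 25 lower with library totals and 43 and 30 with DESeq2. The calls numbered 29 and 25 without the first or the second library at 24 h and 28 without the second at 2 h. Of the 79 raised genes 33 were higher at 24 h than at 2 h. The rise between 2 h and 24 h was 2.72 ± 0.20 for Gbp4, 2.42 ± 0.16 for Gbp2, 2.27 ± 0.15 for Gbp2b, 2.05 ± 0.17 for Ly6a and 1.78 ± 0.15 for Zbp1. It was 1.04 ± 0.11 for Psmb10 and 0.81 ± 0.14 for Igtp (adjusted p = 0.000244, edgeR). Tmem140, Id2, Mdm2 and Irf1 did not pass this test between 2 h and 24 h, with 0.30 ± 0.35, -0.34 ± 0.18, -0.35 ± 0.17 and -0.06 ± 0.16. Ndufa4 was the lower gene with a further fall after 2 h, by -0.44, besides Gm36634.

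Rechallenge after 2 weeks gave 56 calls (0.658%), 51 higher (0.599%) and 5 lower (0.0587%), and 41 of the 79 genes raised at 1 week passed there. The difference between the 1-week and the 2-week response called 0 of 8516 genes with edgeR and 1 with DESeq2. At an unadjusted p under 0.05 edgeR gave 419, about as many as that threshold passes when no gene differs. Such counts from 3 libraries a group do not show that the responses were alike. Gbp2b went from 47.4, 33.2 and 56.04 to 462, 416 and 368 CPM at 2 weeks, a log2 fold change of 3.16 ± 0.16 beside 4.46 ± 0.20 at 1 week. Zbp1 had 2.00 ± 0.15 beside 2.19 ± 0.16, and Irf1 1.81 ± 0.18 beside 1.73 ± 0.21. Tgtp1 had 0.99 ± 0.31 at 2 weeks (adjusted p = 0.255), Parp14 0.97 ± 0.53 (adjusted p = 0.746) and Mdm2 0.05 ± 0.17 (adjusted p = 0.988), none of which passed, and the differences from 1 week were 2.39 ± 0.49, 2.55 ± 1.01 and 1.11 ± 0.27. Of the 33 lower genes 1 passed at 2 weeks.

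In YUMM2.1 the same 24 h rechallenge after 1 week called 128 of 10339 genes (1.24%), 102 higher (0.987%) and 26 lower (0.251%), and 54 of the 79 genes raised in CT26 were higher there. The difference between the lines, CT26 less YUMM2.1, called 5 genes (0.0484%) and was negative in each. For Serpinf1 this was a fall in CT26, not a weaker response there. That sign was not shared by the other scalings, since library totals gave 5 genes with a positive and 7 with a negative difference, and DESeq2 7 and 11. Without the filter there were 12 and 13, and leaving out 1 library gave 2 to 6 calls. There were 2 without the second or the third CT26 library at 24 h, and 3 without the first or the second CT26 library before rechallenge, the first YUMM2.1 library at 24 h or the third before it. Usp18 went from 1.404, 0.534 and 0 to 13.1, 14.5 and 10.2 CPM in YUMM2.1 (3.71 ± 0.58) and by 0.53 ± 0.27 in CT26, a difference of -3.18 ± 0.67 (adjusted p = 0.0208, edgeR). It started from 53.5, 53.9 and 37.9 CPM in CT26, above both levels in YUMM2.1. Rtp4 went from 21.5, 28.8 and 14.8 to 179, 177 and 129 CPM in YUMM2.1, a larger response than in CT26 by the same test (-2.06 ± 0.27, adjusted p = 5.68e-07). Ifi27, an interferon-induced mitochondrial protein, rose in YUMM2.1 (1.02 ± 0.15) and did not pass in CT26 (-0.27 ± 0.17), and Serpinf1 fell in CT26 (-2.89 ± 0.54) beside 0.10 ± 0.17 in YUMM2.1. In the fit over both lines Gbp2 rose by 3.61 ± 0.19 in CT26 and 3.61 ± 0.16 in YUMM2.1, which differ by -0.01 ± 0.34. For Irf1 the difference was -0.13 ± 0.28 and for Gbp4 0.88 ± 0.38, and neither passed.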

How the data were processed

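RNA of the 90 libraries was measured by 3′ digital gene expression, which counts fragments near the 3′ end of transcripts. The authors deposited raw counts per gene, 53697 mouse genes in whole numbers, neither normalized nor pooled. The submitters' processing notes name Salmon 0.13.1 and mm10, and the methods name tximport. Annotation, strand and the use of molecular identifiers are not given in the sources used here. The methods state that some samples of both lines were discarded by principal components without naming them, so all were kept. Symbols were found for 53668 genes, and 0 sample columns were left unused.

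Counts were analysed with edgeR 4.0.16 in R 4.3.3: filterByExpr by group, TMM scaling, one quasi-likelihood fit over the 15 CT26 groups (45 libraries) or the 30 groups of both lines for the contrast between lines, and Benjamini-Hochberg adjustment over all tested genes at 0.05. CPM use TMM-scaled library sizes. The code was tested on simulated data. Counting intervals are exact (95%), the floor is 3 counts over a group, and both cover counting error only. The total counts, 322486 to 1398869 in the 6 libraries, limit the precision of low genes. With 3 libraries against 3, an exact two-sided permutation test of a single gene cannot go below 0.1.

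The genes named are the 15 with the largest positive and the 10 with the largest negative fold among non-overlapping calls, tested members of the 32 lists by smallest p, the 8 leading genes of each contrast between responses, and Parp14, Cd274, Irf1, B2m, Socs1, Ciita and Ifngr1. Other genes (Prdx5, Mt2, Ndufa4, Slc2a3, Aldh1a3, Creld2, Cyp2c55) were named after their values were seen. An item named by these rules is not reported here. The members and lists were chosen with earlier results of these data known, so lists are described by counts and medians without a test. Alternatives were DESeq2 1.42.0, library totals as the scaling, no filter, the compared groups alone, the replicate number as a block, a fold threshold, and leaving out each library or the libraries under 25% of the median of their line.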

Additional observations from a re-analysis of the deposited data

Results flagged for a closer look

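The response to 24 h of IFNγ differed between 1-week and naive CT26 cells in 59 genes by the test of the difference itself. Those with the smallest adjusted p, as far as reported here, had the smaller response at 1 week, on the log2 scale: Zbp1 (-3.40), Psmb9 (-3.82), Gbp7 (-3.33), Usp18 (-3.41), Rtp4 (-2.56), Psme2 (-1.35) and Ifi44 (-2.89). Their adjusted p ran from 1.12e-10 to 4.88e-08 by edgeR's quasi-likelihood test. Each had a higher level before the fresh IFNγ at 1 week than naive cells had before IFNγ, as for Psme2, at 933, 895 and 797 CPM against 336, 311 and 285, and Ifi44, at 29.9, 29.6 and 18.97 CPM against 4.25, 4.996 and 4.16. The part of that starting level in the difference was not tested.

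The 1-week response differed between CT26 and YUMM2.1 in 5 genes by the same test, each with a negative difference (CT26 less YUMM2.1). Library totals gave 5 positive beside 7 negative differences and DESeq2 7 beside 11. The 5 genes were Rtp4 (-2.06), Ifi27 (-1.29), Serpinf1 (-2.98, a fall in CT26), Gm31805 (-1.30) and Usp18 (-3.18). Serpinf1 was 120.3, 106 and 104 CPM before and 123, 124 and 109.8 after in YUMM2.1, far above its level in CT26 before rechallenge. Gm31805 was 64.6, 72.1 and 22.2 CPM before and 162, 115 and 108 after in YUMM2.1, with 1 low library before.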

How the results depend on the processing

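The 112 calls of the main comparison became 143 with DESeq2 (82 higher, 61 lower), 131 with library totals, 165 without the filter, 103 without libraries under 25% of the median, 51 with the compared groups alone and 58 with a fold threshold of 1 (log2). Leaving out 1 library gave 78 to 101. The replicate block gave 121 calls, 111 of them shared, and no pairing was taken from the numbers, since deviations of same-numbered libraries from their group means correlated at -0.0964, 0.0878 and 0.0871. Of the 112, 70 missed the threshold under at least 1 alternative. Ifngr1 turned to 0.15 without libraries under 25% of the median, and ran from -0.86 to 0.17 with 1 library left out. The difference from naive cells gave 59 calls, 107 without the filter and 44 to 89 with 1 library left out. The difference from 2 weeks gave 0, 1 with DESeq2, 45 without the filter, 1 without the shallow libraries and 0 to 1 with 1 library left out. The difference from YUMM2.1 gave 5, 18 with DESeq2, 12 with totals, 25 without the filter and 2 to 6 with 1 library left out. The 24 h against 2 h contrast gave 45, 73 with DESeq2, 68 with totals, 85 without the filter, 27 with the compared groups alone, 26 with the fold threshold and 25 to 47 with 1 library left out. The contrast with the naive 24 h level gave 116, 185 with DESeq2, 5 with the compared groups alone, 24 with the fold threshold and 12 to 219 with 1 library left out. The level before rechallenge against the controls gave 62, 120 without the filter and 49 to 64 with 1 library left out. The causes of these shifts were not tested. Of 384 list medians under the alternatives, 52 moved by over 1 SD.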
